A study of Mus musculus with 30 samples.

Results

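Gm10600, Gm13302, Gm13303, Gm17081, Gm17167, Gm2163 and Gm5859 are 7 of the 41128 genes counted in mouse aortae and kidneys. They were chosen because they are near-identical genes of a cluster on chromosome 4 and because their counts were higher in KO than in WT aortae, so that the KO against WT values of the aorta describe the choice and were not tested. The study deleted the epidermal growth factor receptor gene Egfr in vascular smooth muscle cells (VSMC). In KO mice (Egfr flox/flox, SMMHC-Cre+) a Cre recombinase driven by the promoter of smooth muscle myosin heavy chain deleted the floxed Egfr after tamoxifen. In WT mice the Cre was present but Egfr had no loxP sites, and all groups received tamoxifen (1 mg per day for 5 days). Mice of the label strain C57Bl6J, bred from C57BL/6 and C57BL/6N parents, were fed a standard (SFD) or high fat diet (HFD) for 18 weeks. Mice were 6 weeks old when HFD feeding began, 7 days after tamoxifen. Aortae came from 3 WT-SFD, 4 WT-HFD, 3 KO-SFD and 4 KO-HFD mice, and kidneys from 4 mice of each group. Each library held the RNA of a single mouse, and the mice WT-SFD-1309, KO-SFD-1319 and KO-HFD-1504 gave both tissues, so that p values measure the spread between these mice. Libraries held between 6403699 and 13052870 counts in the aorta and between 16354880 and 28331314 in the kidney.

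Genes of this kind arise when a stretch of chromosome is duplicated several times in place. Some copies keep an open reading frame, whereas others lose it and are annotated as pseudogenes, which can still be transcribed. The part of mouse chromosome 4 that holds the members also carries duplicated genes of the chemokines Ccl19, Ccl21 and Ccl27, which guide lymphocytes to lymph nodes and skin, of the interleukin 11 receptor (Il11ra1, Il11ra2) and of the Fam205 family. RNA sequencing assigns a read by its sequence, so a read from a base run that several copies share fits each of them.

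All 7 members lie within 696.6 kb of chromosome 4 (build GRCm38, annotation GENCODE vM21). Gm10600 (chr4:42240639-42242685, plus strand) and Gm2163 (chr4:42466752-42589938, plus strand) are annotated as protein coding, with 669 and 1419 coding bases. Gm17167 (chr4:42206998-42235313, plus strand) is a processed transcript of 2 exons without a reading frame. Gm5859 (chr4:42236859-42239182, plus strand), Gm17081 (chr4:42239725-42240202, plus strand), Gm13302 (chr4:41893388-41895236, plus strand) and Gm13303 (chr4:42025429-42026712, minus strand) are unprocessed pseudogenes, that is, copies that arose by duplication of genomic DNA. Gm17167, Gm5859, Gm17081 and Gm10600 follow each other within 35.7 kb, whereas Gm13302, Gm13303 and Gm2163 lie apart from them. Several members share ground with another gene: Gm17167 overlaps Gm13301 by 18406 bases on the same strand, Gm2163 overlaps Gm10593 on the same strand and Fam205a2 on the opposite strand, and Gm13302 shares all of its 1849 bases with Gm13307 on the opposite strand.

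Their sequences show how little tells the members apart. A stretch of 120 bases from the coding sequence of Gm10600 (chr4:42241365-42241484) recurs in Gm2163 (chr4:42589078-42589197), Gm5859 (chr4:42238492-42238611), Gm17167 (chr4:42232749-42232868), Gm13302 (chr4:41895001-41895120) and Gm13303 (chr4:42025545-42025664, minus strand). Capitals mark a base that differs from that of most copies, and 3 positions of the stretch hold such a base.
Gm10600: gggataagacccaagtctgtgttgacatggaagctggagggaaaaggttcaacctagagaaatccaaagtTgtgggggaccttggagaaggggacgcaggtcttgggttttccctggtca
Gm2163: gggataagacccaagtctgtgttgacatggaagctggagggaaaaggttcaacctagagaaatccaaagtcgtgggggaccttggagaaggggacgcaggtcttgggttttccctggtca
Gm5859: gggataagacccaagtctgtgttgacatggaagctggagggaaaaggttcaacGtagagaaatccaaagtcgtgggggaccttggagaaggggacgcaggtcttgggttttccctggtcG
Gm17167: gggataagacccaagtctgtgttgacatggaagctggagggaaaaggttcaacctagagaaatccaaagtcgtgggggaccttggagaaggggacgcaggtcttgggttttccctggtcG
Gm13302: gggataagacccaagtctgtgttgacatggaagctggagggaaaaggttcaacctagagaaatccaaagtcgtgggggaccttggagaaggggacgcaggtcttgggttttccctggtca
Gm13303: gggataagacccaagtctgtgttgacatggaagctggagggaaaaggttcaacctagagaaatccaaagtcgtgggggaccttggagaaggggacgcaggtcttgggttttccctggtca

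In this stretch Gm2163, Gm13302 and Gm13303 were identical, and no copy differed from the common sequence at more than 2 bases. Gm17081 lacks that stretch and is shown by another 120 bases (chr4:42239867-42239986), which recur in Gm5859 (chr4:42236997-42237116), Gm17167 (chr4:42234124-42234243) and Gm13302 (chr4:41893499-41893618), with capitals at 6 positions for a base that differs from most of the 4 copies shown. Gm2163 also aligns over this stretch and is not shown.
Gm17081: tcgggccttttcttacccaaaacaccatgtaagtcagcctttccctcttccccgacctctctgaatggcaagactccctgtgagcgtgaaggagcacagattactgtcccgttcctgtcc
Gm5859: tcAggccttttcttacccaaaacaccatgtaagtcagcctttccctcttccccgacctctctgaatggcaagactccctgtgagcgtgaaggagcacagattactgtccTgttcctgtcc
Gm17167: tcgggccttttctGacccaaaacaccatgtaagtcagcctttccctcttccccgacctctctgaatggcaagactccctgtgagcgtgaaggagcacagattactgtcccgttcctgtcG
Gm13302: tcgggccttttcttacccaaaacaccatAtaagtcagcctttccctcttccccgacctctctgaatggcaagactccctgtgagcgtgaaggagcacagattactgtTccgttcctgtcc

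Over whole transcripts, 20 of the 21 pairs of members could be aligned, at 95.27% to 99.92% identity over 88 to 2373 bases. The closest pair was Gm13303 and Gm2163, at 99.92% over 1284 bases, and the pair without an alignment was Gm13303 and Gm17081. Gm10600 and Gm17167 were 99.59% identical over 1936 bases. A further 8 genes of chromosome 4 matched a member at 97% or more over at least 400 bases (Gm3883, Gm12394, Gm10593, Gm3892, Gm13301, Gm10601, Gm21093 and Gm3893), a limit set after the matches had been seen. These are called copies outside the members, and members and copies together span 1048 kb.

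Reads from shared runs cannot be told apart by their own sequence, so the members may not be independent measurements of the same difference. Of all runs of 100 bases, the read length, in the transcript of Gm13303, 0% were found in no other gene. The share was 15.4% in Gm10600, 21.7% in Gm2163, 23.1% in Gm5859, 28.5% in Gm17081, 28.7% in Gm13302 and 41% in Gm17167. These shares count single runs within transcripts. As reads came in pairs, they are not the shares of read pairs that could be placed. Gm13303 nevertheless held 974 counts in the aortae. The copies Gm10593 and Gm3892, neither of which has a run of its own, had 3429 and 3414 counts and differed by at most 20 counts in any of the 14 aortae. The squared difference divided by the sum of both counts averaged 0.183 per aorta for this pair, where separate reads of equal mean give about 1. The same measure was 0.0941 for Fam205a2 and Fam205a3, which are duplicated in the same part of the chromosome. For these pairs, neither of which is a pair of members, the counts were closer to each other than separate sampling of reads would give. Between members the measure was at least 5.77 in the aortae and 1.19 in the kidneys. The pair with 5.77, Gm10600 and Gm5859, also differed in total count (4176 and 4903), which by itself raises the measure. Between a member and a copy it could be lower, as for Gm13303 and Gm21093 in the aortae (0.635) and Gm2163 and Gm10593 in the kidneys (0.68). How reads that fit several genes were counted is not given in the sources used here.

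Egfr, the deleted gene, was measured first as a check of the labels. Its level, in FPM (CPM computed with library sizes scaled by TMM), was 39.5, 46.7 and 54.3 in WT-SFD aortae and 26.8, 28.0 and 35.5 in KO-SFD aortae. It was 51.2 to 65.1 FPM in WT-HFD and 27.5 to 40.6 FPM in KO-HFD aortae. On each diet every KO aorta was below every WT aorta. The log2 fold change of KO against WT was -0.64 ± 0.167 (SE) on SFD and -0.70 ± 0.143 on HFD, with edgeR adjusted p values of 0.547 and 0.129. In kidneys, where VSMC are a small part of the tissue, Egfr was 39.1 to 58.4 FPM in WT-SFD and 46.7 to 60.8 FPM in KO-SFD mice, and the groups overlapped.

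The tissues carried their own markers. In the aortae the 6 smooth muscle markers summed to between 9504 and 17239 FPM, led by the actin Acta2, and in the kidneys the 4 proximal tubule markers summed to between 7827 and 14006 FPM. The smooth muscle markers Tagln and Cnn1 were at 0 in every library of both tissues, as were all 1954 genes of chromosome 9 in the files. A 0 in every library of both tissues, as also for Cdh5, Cd3e and Alas2, is not read as absence of expression. Of the 6 leucocyte markers, 5 were in the files. In the aortae the fibroblast markers summed to 1024 to 2272 FPM, the endothelial markers, of which Cdh5 was at 0, to 422 to 607 FPM, the leucocyte markers, led by Ptprc and with Cd3e at 0, to 14.3 to 96.0 FPM and the markers of lymphatic tissue to 17.7 to 50.8 FPM. In the kidneys the markers of the loop of Henle and distal tubule summed to 4020 to 7923 FPM. Erythrocyte markers, of which Alas2 was at 0, summed to 1075 to 3813 FPM in the kidneys. In the aortae they summed to 10.2, 4.31 and 8.44 FPM in WT-SFD-1309, WT-SFD-1310 and KO-SFD-1319 and to 69.1 to 361 FPM in the other 11. Adipocyte markers, led by Fabp4, a fatty acid binding protein, summed to 3205 and 2331 FPM in the aortae WT-SFD-1309 and WT-SFD-1310 and to 1902 and 665 FPM in KO-SFD-1319 and KO-SFD-1452. In the other 10 aortae they summed to between 49.2 and 186 FPM, and in the kidneys to between 79.9 and 503 FPM. The leucocyte markers were 22.4, 25.2 and 23.0 FPM in WT-SFD and 96.0, 35.7 and 43.5 FPM in KO-SFD aortae, without overlap, whereas they overlapped on HFD. Their part in the differences on SFD was not tested. Adipocyte markers thus differed among SFD aortae of both genotypes. In bulk tissue, fewer cells that express a gene and less RNA per cell cannot be told apart.

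In the aorta all 7 members were higher in KO than in WT mice on both diets. Gm10600, one of the protein coding members, had 6.28, 7.59 and 9.96 FPM in WT-SFD and 71.0, 43.9 and 76.5 FPM in KO-SFD aortae. It had 5.92, 7.64, 9.28 and 9.46 FPM in WT-HFD and 83.0, 37.2, 46.0 and 48.0 FPM in KO-HFD aortae. The lowest KO aorta was more than 3 times as high as the highest WT aorta. The fitted difference was 8.06-fold on SFD (log2 fold change 3.01 ± 0.310, SE) and 6.63-fold on HFD (2.73 ± 0.264).

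Gm2163, the other protein coding member, differed less. It had 9.14, 7.90 and 14 FPM in WT-SFD and 40.3, 30.6 and 42.2 FPM in KO-SFD aortae. It had 8.47, 10.9, 14.8 and 12.3 FPM in WT-HFD and 55.3, 29.1, 32.7 and 30.2 FPM in KO-HFD aortae. The groups were again apart, by 3.68-fold on SFD (1.88 ± 0.280) and 3.17-fold on HFD (1.67 ± 0.237). Gm17167, the transcript without a reading frame, was the member with the most counts. It had 8.46, 9.02 and 21.4 FPM in WT-SFD and 103, 76.6 and 117 FPM in KO-SFD aortae. It had 10.2, 13.0, 16.6 and 16.5 FPM in WT-HFD and 129, 65.3, 70.7 and 80.8 FPM in KO-HFD aortae. Mouse WT-SFD-1445 was the highest WT aorta for this gene, and still below every KO aorta. The difference was 7.72-fold on SFD (2.95 ± 0.349) and 6.15-fold on HFD (2.62 ± 0.296).

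Among the pseudogenes, the short Gm17081 had the fewest counts, as few as 7 in a WT aorta. It had 0.955, 1.23 and 3.18 FPM in WT-SFD and 19.2, 10.3 and 16 FPM in KO-SFD aortae, a difference of 8.63-fold (3.11 ± 0.459). On HFD it ranged from 1.02 to 2.56 FPM in WT and from 7.80 to 18.3 FPM in KO aortae. Gm5859, next to it, had 5.87, 7.90 and 17.8 FPM in WT-SFD and 86.5, 54.0 and 82.0 FPM in KO-SFD aortae (7.13-fold, 2.83 ± 0.374) and was 5.95-fold higher in KO on HFD (2.57 ± 0.319). Without WT-SFD-1445 the log2 fold change on SFD was 3.76 for Gm17081, 3.42 for Gm5859 and 3.50 for Gm17167. Gm13302, which lies before the block of 4, was 6.10-fold higher in KO on SFD (2.61 ± 0.335) and 3.71-fold on HFD (1.89 ± 0.276). Gm13303, which has no run of bases of its own, differed least, by 3.42-fold on SFD (1.77 ± 0.284) and 2.63-fold on HFD (1.4 ± 0.239). The median log2 fold change over the members was 2.83 on SFD and 2.57 on HFD, where that over all 14796 genes tested was -0.03 and -0.01. Of all genes tested, 0.0811% passed an adjusted p under 0.05 on SFD and 0.0811% on HFD, and 0.0676% were higher in KO and passed on each diet. On SFD 4.20% and on HFD 2.15% were higher in every KO than in any WT aorta. As the members were chosen on this contrast, nothing is read from these shares. Of the 2078 other tested genes whose symbol is Gm followed by digits, without the near-identical copies described above, 0 passed on either diet with edgeR. At an unadjusted p under 0.05 there were 140 on SFD and 185 on HFD, against 908 and 746 of all 14796 genes. The log2 fold changes of the 2078 genes ran from -2.62 to 6.41 on SFD (median -0.05) and from -2.64 to 6.71 on HFD (median 0.06). The highest value on each diet was above that of every member.

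**Figure D1:**
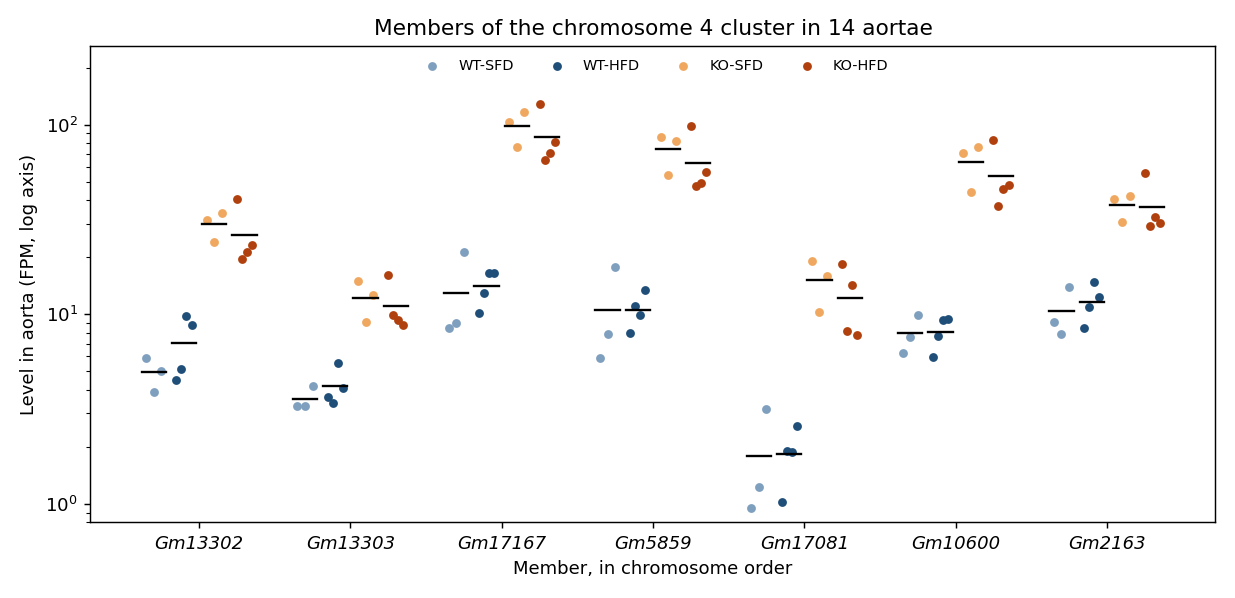
Level of each member in FPM (log axis) in each of the 14 aortae, with members in chromosome order on the horizontal axis, points for single mice coloured by group and a black line at the group mean. For Gm10600 the KO aortae sit between 37.2 and 83.0 FPM and the WT aortae between 5.92 and 9.96 FPM.

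The summed level of the 7 members was 39.9, 40.8 and 75.5 FPM in WT-SFD aortae (52.1 ± 20.3, SD, n = 3) and 367, 249 and 381 FPM in KO-SFD aortae (332 ± 72.5, n = 3). It was 41.7, 52.9, 67.8 and 67.1 FPM in WT-HFD (57.4 ± 12.5, n = 4) and 441, 217, 243 and 255 FPM in KO-HFD aortae (289 ± 102, n = 4). These sums rest on 292 to 650 counts in WT and 1785 to 4199 counts in KO libraries. WT-SFD-1445, the WT-SFD aorta with the highest sum, was also the one with few adipocyte markers (79.8 FPM). On SFD without the 3 aortae whose adipocyte markers exceeded 1000 FPM, which are also the 3 with the fewest erythrocyte markers and leave WT-SFD-1445 as the sole WT-SFD aorta, the median log2 fold change of the members was 2.06. On HFD, where adipocyte markers were at most 186 FPM in every aorta, it was 2.57.

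The members differed in how much higher they were. The 4 members of the 35.7 kb block (Gm17167, Gm5859, Gm17081 and Gm10600) were 7.13- to 8.63-fold higher in KO on SFD, and Gm13302, Gm13303 and Gm2163 3.42- to 6.10-fold. On HFD these ranges were 5.95- to 6.63-fold and 2.63- to 3.71-fold. Accordingly the block held 62.1% ± 7.60 (SD, n = 3) of the counts of the members in WT-SFD and 75.8% ± 1.27 (n = 3) in KO-SFD aortae. It held 60.4% ± 3.51 (n = 4) in WT-HFD and 74.3% ± 1.10 (n = 4) in KO-HFD aortae. The share was 54.1% to 69.2% over the WT and 73.0% to 76.6% over the KO aortae, so that the genotypes did not overlap.

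Per kb of transcript, the levels of the members lay close together in WT aortae. In WT-SFD they ran from 2.56 ± 1.44 FPM per kb (Gm17167, SD, n = 3) through Gm13302 (2.67 ± 0.533), Gm13303 (2.79 ± 0.407), Gm17081 (3.74 ± 2.54), Gm2163 (3.80 ± 1.18) and Gm10600 (3.88 ± 0.912) to Gm5859 (4.52 ± 2.73), and each mean lay within the larger SD of the pair from its neighbour. In KO-SFD the order was Gm13303 (9.51 ± 2.30 FPM per kb), Gm2163 (13.9 ± 2.25), Gm13302 (16.1 ± 2.80), Gm17167 (19.6 ± 4.07), Gm10600 (31.2 ± 8.57), Gm17081 (31.7 ± 9.37) and Gm5859 (31.9 ± 7.54). The last 3 were within their SD of each other, and Gm17167 lay below them by more than its own SD. As the members share sequence, these levels may depend on how reads were divided among copies.

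The 8 copies outside the members were also higher in KO aortae, with median log2 fold changes of 1.52 on SFD and 1.36 on HFD. For 7 of the 8, every KO aorta was above every WT aorta on both diets, the exception being Gm12394, whose groups overlapped (0.48 ± 0.332 on SFD and 0.25 ± 0.285 on HFD). Gm12394 had 73.6% of its runs of 100 bases to itself, the highest share of the 15 genes. Gm13301, which overlaps Gm17167, came closest to the members of the block, with 36.0 FPM in KO-SFD against 5.94 FPM in WT-SFD (6.22-fold) and 31.3 against 4.51 FPM on HFD (6.98-fold). Of the 8 copies and 73 other tested genes of the region, Gm13301 was the sole gene that passed an adjusted p under 0.05 in KO against WT aortae, on HFD, and as its sequence is nearly that of the members it is no separate evidence. Gm10593, Gm3892, Gm3883, Gm21093, Gm3893 and Gm10601 were 2.46- to 3.58-fold higher on SFD and 2.40- to 2.94-fold on HFD. The summed level of the 8 copies was 73.1 ± 39.0 FPM in WT-SFD and 211 ± 38.8 FPM in KO-SFD aortae (SD, n = 3).

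Other genes of the chromosome region, from 1 Mb before to 1 Mb after the members, did not share the difference to the same extent. Of 73 tested, 0 passed an adjusted p under 0.05 in KO against WT on either diet with edgeR, where 0.0811% of all genes did. As so few genes passed, the 0 of 73 says little by itself. At an unadjusted p under 0.05 there were 9 on SFD and 5 on HFD, against 908 and 746 of all 14796 genes tested. The median log2 fold change of the 73 was 0.03 on SFD and 0.07 on HFD. Among the 25 that start within the span of members and copies, 19 were higher and 6 lower on SFD (median 0.37) and 24 higher and 1 lower on HFD (median 0.33), against medians of -0.03 and 0.00 over the 48 outside it. This split was made after the values had been seen. Of the 25, 6 on SFD were higher in every KO than in any WT aorta (Ccl19, Ccl19-ps1, Ccl19-ps3, Gm20878, Gm21586 and Gm2564) and 3 on HFD (Ccl19-ps3, Gm13307 and Gm2564). The share over all genes tested was 4.20% on SFD and 2.15% on HFD. Ccl19-ps3, a pseudogene of Ccl19, had 5.17 FPM in WT-SFD and 11.0 FPM in KO-SFD aortae (1.09 ± 0.316) and reached 1.3 ± 0.272 on HFD, and Gm2564 had 1.08 ± 0.251 and 0.99 ± 0.211. Gm13307, which overlaps Gm13302 on the opposite strand, had 0.71 ± 0.266 on SFD and 0.96 ± 0.230 on HFD. Outside the span the values on SFD ran from -2.16 ± 0.439 (1700022I11Rik, 0.437 FPM in KO) to 1.59 ± 0.530 (Gm12454). These genes were named after their values had been seen.

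The chemokine and receptor genes of the region overlapped between genotypes, save Ccl19 on SFD. Ccl27a, which attracts T cells to skin, had 18.7 FPM in WT-SFD and 19.0 FPM in KO-SFD aortae (0.03 ± 0.201). Its relative Ccl27b had 1.82 and 1.09 FPM (-0.67 ± 0.627). Il11ra1 and its copy Il11ra2, receptors of interleukin 11, had log2 fold changes of 0.19 ± 0.163 and 0.30 ± 0.290 on SFD and of -0.18 ± 0.141 and 0.11 ± 0.242 on HFD. Ccl21a and Ccl21b, ligands of the lymphocyte receptor CCR7, had -0.65 ± 0.514 and -0.23 ± 0.485 on SFD, and Ccl19, the other CCR7 ligand, 0.67 ± 0.433. Ccl19 was higher in every KO-SFD than in any WT-SFD aorta, but not on HFD (0.49 ± 0.370). The Fam205a genes, which match Gm10600 over 299 bases at 93.98% identity, ran from 0.15 to 0.39 on SFD and from 0.20 to 0.40 on HFD. Fam205c had -0.35 ± 0.452 on SFD and 0.87 ± 0.396 on HFD, where the groups overlapped.

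Genes of the region with a single copy were described by a fixed list. The log2 fold change on SFD was -0.10 ± 0.192 for Galt, an enzyme of galactose metabolism, 0.07 ± 0.300 for the dynactin subunit Dctn3 and -0.25 ± 0.266 for Cntfr, the receptor of ciliary neurotrophic factor. It was -0.07 ± 0.104 for the ATPase Vcp, -0.20 ± 0.390 for Fancg, -0.22 ± 0.242 for Stoml2 and 0.22 ± 0.216 for Dnajb5. It was -0.23 ± 0.448 for Rpp25l, 0.03 ± 0.116 for Ubap1, 0.14 ± 0.0975 for Ubap2 and -0.35 ± 0.437 for Nudt2. Of these, Ubap2 alone was higher in every KO-SFD than in any WT-SFD aorta. Enho was below the limit for testing. On HFD the 11 genes of this kind given here ran from -0.38 (Fancg) to 0.47 (Cntfr), and the adjusted p (edgeR) was 0.999 for every one of them.

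**Figure D2:**
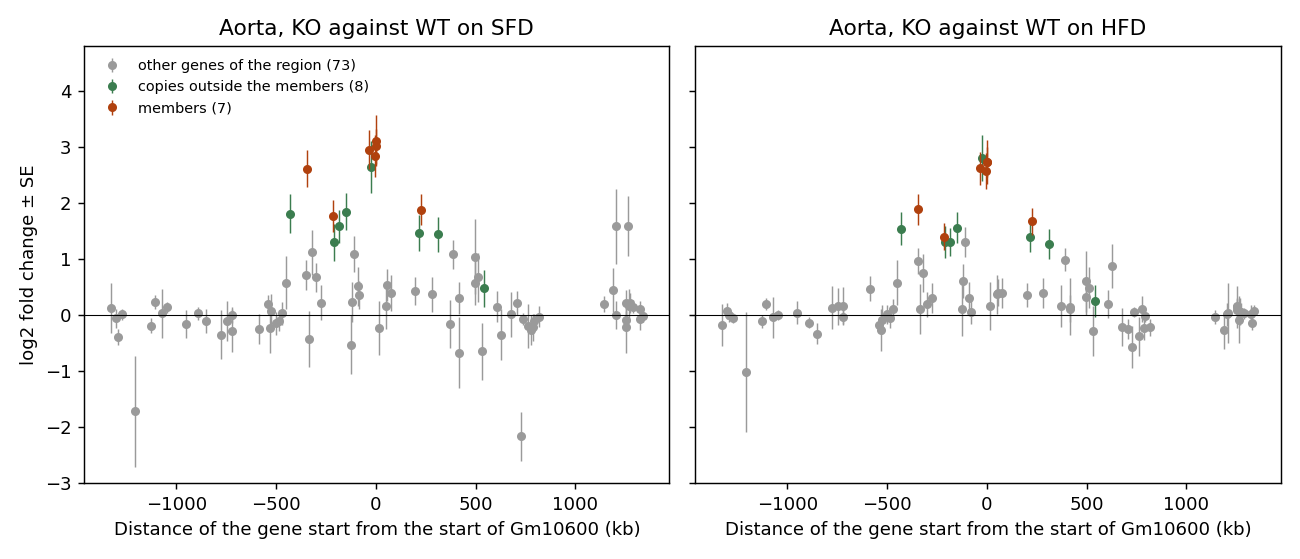
Fitted log2 fold change ± SE of KO against WT aortae for every tested gene of the region, plotted against the distance in kb of its start from that of Gm10600, on SFD (left) and HFD (right), with members, copies outside the members and other genes in different colours. The members of the block at the centre lie between 2.57 and 3.11, and the median of the other 73 genes is 0.03 on SFD and 0.07 on HFD.

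Diet comparisons were not the contrast on which the members were chosen, and were tested. In the aorta they use the same libraries as that choice, so they are not fully separate from it. In WT aortae 7 of 7 members had a higher fitted level on HFD than on SFD, by log2 fold changes of 0.02 (Gm10600 and Gm5859) to 0.52 (Gm13302), with a median of 0.13. In KO aortae 7 of 7 were lower on HFD, from -0.32 (Gm17081) to -0.04 (Gm2163), with a median of -0.20, which was -0.49 without KO-HFD-1454 and -0.11 without KO-HFD-1503. The smooth muscle markers summed to 9504, 11759 and 14699 FPM in WT-SFD and 15188 to 15855 FPM in WT-HFD aortae, and their part in the values was not tested. The groups overlapped for every member in both diet comparisons, and none passed the test: 0 of 7 had an adjusted p under 0.05 in either (edgeR, smallest adjusted p 0.459 in WT and 0.842 in KO), 0 of 7 an unadjusted p under 0.05, and 0 of 7 were called by DESeq2. Of all genes tested in the aorta, 0% passed in either diet comparison, and 16.7% in WT and 7.47% in KO had an unadjusted p under 0.05. In WT 4.43% of all genes were higher in every HFD aorta, and in KO 3.59% were lower. By direction alone, 7149 of the 14796 genes tested were higher on HFD in WT and 7439 were lower in KO. As the members share sequence, 7 of 7 in 1 direction may not be separate signs. For Gm13302, the member with the largest diet difference in WT, HFD against SFD was 1.43-fold (0.52 ± 0.328). Without WT-SFD-1445 the median log2 fold change in WT was 0.54, and without WT-SFD-1309 it was -0.09, so its sign rested on single WT-SFD aortae, and it was -0.30 without the 3 aortae rich in adipocyte markers. As a description, the KO against WT difference was smaller on HFD than on SFD for 7 of 7 members, with differences of -0.72 to -0.21 on the log2 scale and a median SE of 0.428, where 0% of all genes passed that test.

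In the kidney the members were scarcely detected. The 7 members together had 9 to 252 counts per kidney, against 292 to 4199 per aorta, and single members had 0 to 78 counts. Gm13303 and Gm17081, with 64 and 75 counts over all 16 kidneys, were below the limit for testing, so 5 of the 7 members were tested. The summed level was 0.542, 0.565, 3.67 and 5.11 FPM in WT-SFD kidneys and 5.35, 7.01, 10.2 and 6.88 FPM in KO-SFD kidneys. It was 6.20, 9.59, 6.02 and 4.06 FPM in WT-HFD and 10.2, 10.9, 8.67 and 6.18 FPM in KO-HFD kidneys. WT-SFD-1309 and WT-SFD-1446 stood apart, with 10 and 9 counts over all members where no other kidney had fewer than 85. Their total counts were 17833253 and 16354880, and their proximal tubule markers summed to 10291 and 8772 FPM. The aortae and kidneys were sequenced at different sites and were not fitted together, so that their levels are set side by side here and not compared by a test.

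**Figure D3:**
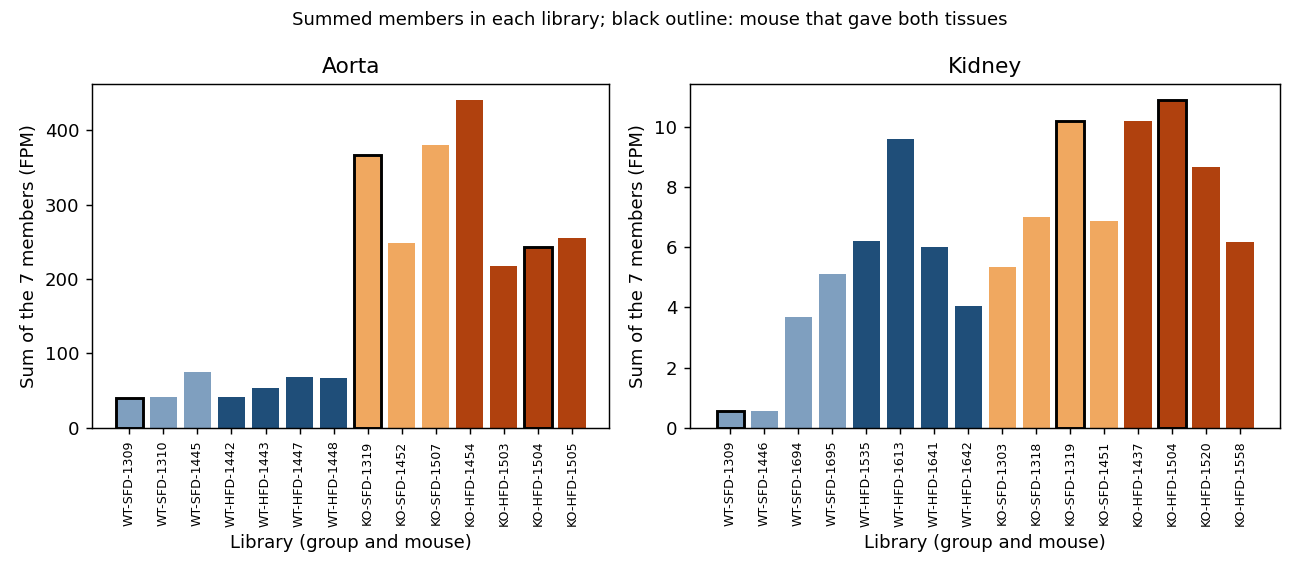
Summed level of the 7 members in FPM in each aorta (left) and kidney (right), one bar per mouse, coloured by group, on separate linear scales, with the 3 mice that gave both tissues outlined in black. WT and KO aortae do not overlap, whereas among kidneys WT-SFD-1309 and WT-SFD-1446 have 0.542 and 0.565 FPM and the other 14 between 3.67 and 10.9 FPM.

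Of the tested members, 5 of 5 had a higher fitted level in KO than in WT kidneys on SFD, by log2 fold changes of 0.85 to 1.77 with a median of 1.54, but 0 of 5 passed an adjusted p under 0.05 with edgeR and 0 of 5 with DESeq2. Of all 15034 genes tested, 0.0133% passed. At an unadjusted p under 0.05, 3 of 5 members did, where 8.37% of all genes did. The 3 (Gm10600, Gm5859 and Gm17167) are near-identical in sequence. Gm10600 had 0.0542, 0.126, 1.10 and 0.941 FPM in WT-SFD kidneys and 1.45, 1.94, 2.86 and 1.91 FPM in KO-SFD kidneys. The groups did not overlap, and the log2 fold change was 1.77 ± 0.543 (SE, edgeR unadjusted p 0.00484, adjusted p 0.453). Gm5859 likewise did not overlap, with 0.0628 to 1.12 FPM in WT-SFD and 1.45 to 2.40 FPM in KO-SFD kidneys (1.72 ± 0.542, edgeR unadjusted p 0.00579, adjusted p 0.460). Of all genes tested, 1.90% were higher in every KO-SFD than in any WT-SFD kidney. Gm17167 (1.54 ± 0.527, edgeR adjusted p 0.500), Gm2163 (1.13 ± 0.564, 0.616) and Gm13302 (0.85 ± 0.684, 0.721) overlapped. Single kidneys moved these values, as without WT-SFD-1695 the log2 fold change was 2.40 for Gm17167, 2.38 for Gm5859 and 1.94 for Gm13302, and without WT-SFD-1694 it was 2.33 for Gm10600 and 1.65 for Gm2163. Without KO-SFD-1319 it was 0.51 for Gm13302. Without the kidneys of WT-SFD-1309 and WT-SFD-1446, a setting chosen after the values had been seen, the median log2 fold change was 0.81 and 0 members passed. A further marker list, whose values are not given here, did not overlap between WT-SFD and KO-SFD kidneys, and its part in the values was not tested.

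On HFD the fitted difference between KO and WT kidneys was smaller than on SFD for 4 of the 5 members, the exception being Gm13302. The log2 fold changes were 0.90 ± 0.615 for Gm13302, 0.75 ± 0.515 for Gm10600, 0.42 ± 0.487 for Gm17167, 0.39 ± 0.493 for Gm5859 and -0.02 ± 0.514 for Gm2163. The groups overlapped for every member, and 0 of 5 passed (edgeR adjusted p 1.00 each, 0 of 5 at an unadjusted p under 0.05, 0 of 5 by DESeq2), where 0.00665% of all genes did and 1.65% had an unadjusted p under 0.05. Of all genes, 0.645% were higher in every KO-HFD than in any WT-HFD kidney. The difference of the KO effect between the diets was -1.33 to 0.05 on the log2 scale with a median of -1.12 and a median SE of 0.745. Of 5 members 0 passed that test with edgeR, 0 by DESeq2 and 0 at an unadjusted p under 0.05, where 0% of all genes passed and 3.23% had an unadjusted p under 0.05.

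HFD against SFD gave a similar picture. In WT kidneys 5 of 5 members had a higher fitted level on HFD, from 0.80 (Gm13302) to 1.63 (Gm5859) with a median of 1.35, and 0 of 5 passed with edgeR or with DESeq2, where 0.911% of all genes did. At an unadjusted p under 0.05 there were 3 of 5 (Gm5859, Gm17167 and Gm2163) against 7.90% of all genes, and the groups overlapped for every member, where 3.02% of all genes were higher in every HFD kidney. Without WT-SFD-1309 and WT-SFD-1446 the median was 0.66. In KO kidneys the log2 fold changes were 0.02 (Gm10600) to 0.85 (Gm13302) with a median of 0.28, and 0 of 5 passed with edgeR or DESeq2 (0 of 5 at an unadjusted p under 0.05), where 2.30% of all genes did and 15.8% had an unadjusted p under 0.05. The markers of the loop of Henle and distal tubule summed to 7342 to 7923 FPM in KO-SFD and 4020 to 6202 FPM in KO-HFD kidneys, and their part in the values was not tested. The KO groups overlapped for every member, where 5.02% of all genes were higher in every HFD kidney. The copies outside the members, of which 5 were tested in kidneys, likewise had 0 passing in any comparison with edgeR (at most 1 at an unadjusted p under 0.05), with a median log2 fold change of KO against WT of 0.85 on SFD and 0.42 on HFD. The WT-SFD kidneys, which hold the pair of mice that stood apart, enter both the KO against WT comparison on SFD and the diet comparison in WT.

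**Figure D4:**
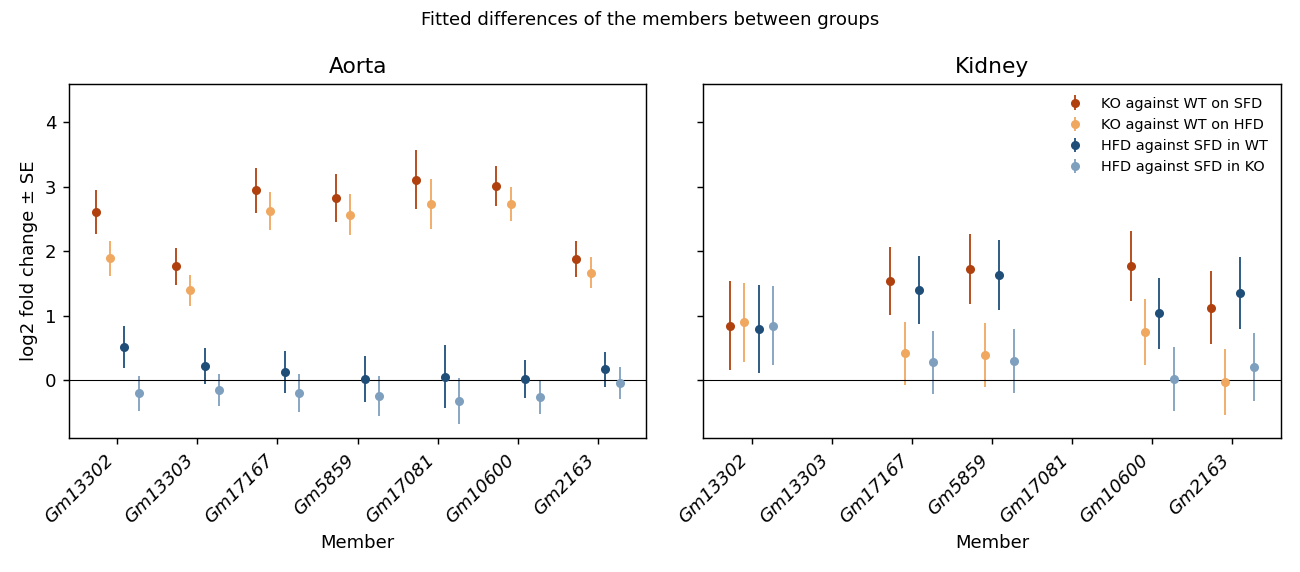
Fitted log2 fold change ± SE of each tested member in the 4 comparisons, for aorta (left, 7 members) and kidney (right, 5 members). In the aorta KO against WT values lie between 1.4 and 3.11 and diet values between -0.32 and 0.52, and in the kidney the KO against WT values run from -0.02 to 1.77 with larger SE.

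The mice that gave both tissues could be followed across them. WT-SFD-1309 had a summed level of 39.9 FPM in its aorta and 0.542 FPM in its kidney, the lowest value of each tissue. KO-SFD-1319 had 367 FPM in its aorta and 10.2 FPM in its kidney, and KO-HFD-1504 243 and 10.9 FPM, the last being the highest kidney. Without these mice the median log2 fold change of KO against WT was 2.63 in the aorta on SFD and 1.08 in the kidney on SFD. The block of 4 adjacent members held 69.2% ± 7.32 (SD, n = 4) of the members' counts in WT-SFD and 81.8% ± 4.43 (n = 4) in KO-SFD kidneys, with 78.5% to 88.3% in the latter. In WT-SFD it was 60.0% and 66.7% in WT-SFD-1309 and WT-SFD-1446, on 10 and 9 counts, and 74.8% and 75.4% in the other kidneys. In WT-HFD and KO-HFD kidneys, with 73.3% ± 10.1 and 77.3% ± 4.46 (n = 4), the shares overlapped.

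Of the other genes of the region, 3 passed an adjusted p under 0.05 in a kidney comparison with edgeR, all by diet. Cntfr rose on HFD in WT (18.2 against 7.49 FPM, log2 fold change 1.28 ± 0.191, adjusted p 0.00179) and in KO kidneys (18.3 against 9.10 FPM, 1.00 ± 0.190, adjusted p 0.00754). AI464131 rose (0.66 ± 0.115, adjusted p 0.00381) and Aqp7, a channel for glycerol and water, fell on HFD in KO kidneys (-0.61 ± 0.120, adjusted p 0.0109). None of them is a copy of the members.

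In the aorta the genes whose levels followed the summed members most closely were copies. Across the 14 aortae, the 5 with the highest Pearson correlation of log2 CPM were Gm3892 (r = 0.979), Gm13301 (0.976), Gm10593 (0.968), Gm3883 (0.963) and Gm21093 (0.961), all of which share sequence with the members. Across the 16 kidneys they were Gm13301 (r = 0.934), the inhibin subunit Inha (0.896), the G protein regulator Rgs2 (0.877), the ectonucleotidase Entpd2 (0.867) and Gm10593 (0.862). These correlations describe libraries that fall into groups and, in the kidney, rest on few counts of the members.

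Genes that differ between substrains of C57BL/6 mice are given as values beside these results. The label strain is C57Bl6J, whereas the parents of the mice are given as C57BL/6 and C57BL/6N. Nnt, a mitochondrial transhydrogenase that is disrupted by a deletion in C57BL/6J, had 54.2 FPM in WT-SFD and 57.4 FPM in KO-SFD aortae (0.09 ± 0.130) and 68.6 and 65.6 FPM on HFD (-0.06 ± 0.112). Wdfy1 (-0.07 ± 0.156 on SFD, -0.20 ± 0.134 on HFD), Entpd4 (-0.20 ± 0.226, -0.04 ± 0.197), Ide (-0.20 ± 0.148, -0.03 ± 0.128) and Fgfbp3 (-0.08 ± 0.443, -0.75 ± 0.380) had an adjusted p of 0.834 or more with edgeR on either diet, although Fgfbp3 was lower in every KO-HFD than in any WT-HFD aorta. Fgfbp3 had 3 to 13 counts in the KO-HFD and 12 to 16 in the WT-HFD aortae, so this gap rests on few counts. In the kidneys Nnt was 134 and 139 FPM in WT-HFD-1642 and WT-HFD-1641 and 213 FPM or more in the other 14. Ide was 64.3 to 72.6 FPM in WT-SFD and 49.4 to 59.8 FPM in KO-SFD kidneys, without overlap (-0.30 ± 0.0922, edgeR adjusted p 0.453), and overlapped on HFD (-0.06 ± 0.0921). The groups overlapped on both diets for Nnt, Wdfy1, Entpd4 and Fgfbp3 in KO against WT kidneys. The number of copies of the cluster in the genome of each mouse was not measured, and its part in the results was not tested.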

How the data were processed

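RNA of 14 aortae and 16 kidneys was depleted of ribosomal RNA and sequenced paired-end. The reads of the aortae were trimmed with cutadapt and those of the kidneys by the sequencing company. The authors aligned them to GRCm38/mm10 with TopHat and obtained counts per gene with featureCounts. The raw counts were deposited with 1 column per mouse. Aortae and kidneys were sequenced at different sites. The strand setting and the handling of reads that fit several genes are not given in the sources used here. All columns were used. The paper gives more aortae on SFD than the 3 per genotype used here.

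Groups were taken from the labels. Counts were filtered with filterByExpr (14796 genes left in the aorta, 15034 in the kidney), scaled by TMM and fitted per tissue with the quasi-likelihood functions of edgeR 4.0.16 in R 4.3.3, all 4 groups of a tissue together, with Benjamini-Hochberg adjustment over all genes tested. A member is called at an adjusted p under 0.05. FPM are CPM computed here with library sizes scaled by TMM, and SE is the log2 fold change divided by the square root of F. Single members had 7 to 1292 counts in an aorta and 0 to 78 in a kidney. Positions and sequences were read from GENCODE vM21 (40254 of 41128 identifiers found), with BLASTN 2.17.0 and MAFFT 7.526 for alignments and Python 3.11.15 for figures. Functions were tested on simulated data.

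The members and lists were chosen with earlier results of these data known. The named genes are the members, Egfr, genes of the region within 1 Mb that passed or are known there, the 5 genes per tissue most correlated with the summed members (log2 CPM, prior count 2) and 5 genes that differ between substrains. Alternatives were DESeq2 1.42.0, RLE factors, library totals, no filter, only the 2 groups compared, an adjusted p under 0.001, the members summed, adipocyte markers as covariate, and leaving out libraries. Ccl21c was not analysed here. A further gene of the region and a further marker list are not reported here. Markers of leucocytes, lymphatic tissue, fibroblasts, endothelium, erythrocytes and the distal nephron were computed in each library as well.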

Additional observations from a re-analysis of the deposited data

Results flagged for a closer look

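In the KO-HFD aortae, mouse KO-HFD-1454 was far above the other 3 for several values. Gm13303 was 16.1 FPM in this aorta against 8.76 to 9.86 FPM in the others, and Gm2163 was 55.3 FPM against 29.1 to 32.7 FPM. The sum of the 7 members was 441 FPM against 217 to 255 FPM, and the sum of the 8 copies outside the members 271 FPM against 164 to 169 FPM. These 4 values come from near-identical genes and are not separate signs. The library had a total count of 6782444, and the KO against WT difference on HFD without it was a median log2 fold change of 2.28.

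In the WT-HFD kidneys, Gm10600 was 2.30 FPM in mouse WT-HFD-1613, on 45 counts, against 0.765 to 1.02 FPM in the other 3. Of 60 groups of 4 libraries examined in this way, 5 held such a value, and chance alone marks about 5% of them.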

How the results depend on the processing

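No paired analysis was possible because the labels give no replicate numbers that tie mice of different groups together. Each of the 7 counts of members called in a diet comparison or in the kidney was 0 under every alternative run. The KO against WT log2 fold change of each member in the aorta was above 0 in all 210 values under the alternatives, from 1.16 to 3.76. Its median on SFD was 2.66 to 3.19 with 1 library left out, the highest without WT-SFD-1445, and on HFD 2.28 to 2.70. Without the 3 aortae rich in adipocyte markers the median on SFD was 2.06 (the cause was not tested), and it rests on a lone WT-SFD aorta assumed to vary like the other groups. Gm2163 in kidneys on HFD changed sign with 1 library left out, from -0.26 to 0.43. Egfr passed an adjusted p under 0.05 in 4 alternative results over both diets. Among these were HFD with DESeq2, with only the 2 groups compared and with the adipocyte covariate. In the kidney, low counts limit every value. In the aorta, sequence shared between copies limits what can be said of a single member.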

Other observations

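The gene outside chromosome 4 whose level followed the summed members most closely across the aortae was Adcy1 on chromosome 11, an adenylyl cyclase that makes cyclic AMP (r = 0.949 over 14 aortae, sixth in order after 5 copies). It was chosen after its values had been seen. Next outside chromosome 4 came Gm11983, also on chromosome 11 (r = 0.907, rank 9). Egfr lies on chromosome 11 as well, and the part of this position in the values was not tested. Adcy1 had 3.03 to 8.36 FPM in WT and 198 to 388 FPM in KO aortae. In kidneys it had 14.1 to 27.0 FPM in WT and 4.49 to 13.9 FPM in KO mice, so that the genotypes did not overlap in either tissue and lay in opposite order. The difference between tissues was not tested.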
